A study of Mus musculus with 24 samples.

Results

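Endothelial cells of the aorta and of leg muscle were compared in wild-type mice on a high-fat diet. The comparison rested on 6 of the 24 arrays of the series, namely the 3 arrays of aortic endothelium and the 3 arrays of skeletal muscle endothelium from wild-type C57BL/6 males that ate a high-fat diet (HFD, 60% of calories from fat) for 8 weeks from 8 weeks of age. The members were chosen by their labels, not by a measured value. In each of 3 trials the cells of 3 to 4 animals were pooled for each tissue, so an array is a pool and both tissues of a trial came from the same mice. Aortae were taken whole down to the iliac bifurcation, the muscle was plantaris, gastrocnemius and biceps femoris, and about 10000 live CD105+/CD45- cells were sorted from each digest. CD105 is endoglin, a part of the TGF-beta receptor complex on endothelial cells that other cells can also carry, and CD45 marks leukocytes. The other 18 arrays held the same tissues from wild-type mice on chow (12% of calories from fat) and from galectin-3-deficient (Lgals3-/-, KO) mice on either diet. They are used below only where the tissue difference is set beside that of WT HFD. The study itself compared diets and strains within a tissue.

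The endothelium of a large artery lines an elastic wall under pulsatile flow and exchanges little with the tissue around it. Muscle yields mostly capillary endothelium, a thin layer without a muscular coat that passes oxygen, glucose and fatty acids to the fibres. Both share a core set of genes for junctions, flow sensing and growth factor signalling, and arterial identity is known to rest on Notch signalling, while muscle capillaries are known for the fatty acid handling genes Cd36, Gpihbp1 and Fabp4.

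The 6 arrays were single-colour Cy3 hybridisations with 41174 probes, of which 27198 carried a gene symbol, for 18539 symbols. Levels are given as log2 of the processed signal over the array's 75th percentile, so a level of 0 is that percentile and each unit is a doubling. A probe was called well above background when the scanner software flagged it so. The flag was set on 59.5% to 75.7% of an array's spots, and the shares of the tissues overlapped (exact permutation test, two-sided, p = 1, where 3 against 3 arrays cannot go below 0.1). Each slide held the 4 arrays of 1 tissue and 1 trial, so tissue and slide cannot be told apart, and the 2 scan sessions (trial 1, and trials 2 and 3) each held both tissues. Arrays of 1 tissue correlated at 0.94 to 0.96 over the probes and arrays of different tissues at 0.82 to 0.92.

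Some HFD arrays of trial 1 stood apart in a check of strain. Over 34 probes that separated KO from WT in trials 2 and 3, a median score of 0 means the WT level and 1 the KO level. The muscle array labelled WT HFD of trial 1 scored 0.517 and the aortic array 0.153. The 4 WT HFD arrays of trials 2 and 3 lay between -0.130 and 0.0779. The WT chow muscle arrays of trials 2 and 3 scored 0.143 and 0.150, just below the aortic value, and that of trial 1 scored 0.225. The other WT aortic arrays all scored lower, between -0.237 and -0.0429. Probes and levels were set on trials 2 and 3, so arrays of those trials lie near 0 or 1 partly by construction. In the same trial the arrays labelled KO HFD scored 0.562 in muscle and 0.319 in aorta. The Lgals3 probe was well above background on all 24 arrays, so its presence gave no check. In aorta outside the HFD arrays of trial 1, its level was 0.899 to 2.80 in WT and 3.13 to 4.53 in KO. The aortic HFD arrays of trial 1 had the reverse order, 3.20 in WT and 2.40 in KO. In muscle the strains overlapped over all trials, at 3.27 to 4.98 in WT and 4.31 to 6.31 in KO. The chow arrays of trial 1 scored as labelled, at -0.0429 and 0.225 in WT and 0.879 and 1.02 in KO. Whether the HFD pools of trial 1, those labelled WT included, held cells of the other genotype was not tested. Most counts of calls in WT HFD are given with and without trial 1, but calls shared with the other groups only with it.

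The promoters of 5 genes whose results are given below are printed here as a reference for the reader: 2 fast-fibre myosin light chains that were higher in muscle, 2 interferon-stimulated genes that were higher in muscle, and Mmp3, the first by size of the genes higher in aorta that were well above background on all 6 arrays. The sequences are the 250 bases before 1 transcript start of each gene in RefSeq (GRCm38.p6), 5′ to 3′ on the gene's strand. For Myl1 and Mylpf that start lies inside the annotated gene, downstream of its outermost start, and for the others it is the gene's outermost start. The windows are Myl1 chr1:66945057-66945306 (-), Mylpf chr7:127211358-127211607 (+), Isg15 chr4:156200819-156201068 (-), Bst2 chr8:71537473-71537722 (-) and Mmp3 chr9:7445572-7445821 (+). Capitals mark, on either strand, the E-box CAGCTG and the MCAT element CATTCC in the myosin promoters, the interferon-stimulated response element (GAAA, any 2 bases, GAAA) in Isg15 and Bst2, and the AP-1 element TGANTCA in Mmp3.
Myl1: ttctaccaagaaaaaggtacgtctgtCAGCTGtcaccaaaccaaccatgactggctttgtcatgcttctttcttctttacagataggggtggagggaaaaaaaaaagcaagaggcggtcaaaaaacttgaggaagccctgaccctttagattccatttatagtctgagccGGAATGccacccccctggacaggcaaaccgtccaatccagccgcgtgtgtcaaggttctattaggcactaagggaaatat
Mylpf: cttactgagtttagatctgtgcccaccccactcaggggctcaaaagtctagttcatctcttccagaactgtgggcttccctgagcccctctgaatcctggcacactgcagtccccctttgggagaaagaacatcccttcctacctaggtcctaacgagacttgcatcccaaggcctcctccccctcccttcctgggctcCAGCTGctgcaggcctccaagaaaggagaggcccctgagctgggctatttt
Isg15: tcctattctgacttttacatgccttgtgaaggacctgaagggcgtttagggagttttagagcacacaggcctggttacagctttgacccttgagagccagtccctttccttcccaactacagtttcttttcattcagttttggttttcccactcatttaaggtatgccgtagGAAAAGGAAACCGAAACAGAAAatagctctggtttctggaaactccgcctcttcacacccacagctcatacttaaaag
Bst2: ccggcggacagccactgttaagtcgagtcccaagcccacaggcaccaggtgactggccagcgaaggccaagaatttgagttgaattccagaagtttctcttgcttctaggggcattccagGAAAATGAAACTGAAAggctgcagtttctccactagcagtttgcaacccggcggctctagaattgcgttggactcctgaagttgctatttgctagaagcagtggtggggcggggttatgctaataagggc
Mmp3: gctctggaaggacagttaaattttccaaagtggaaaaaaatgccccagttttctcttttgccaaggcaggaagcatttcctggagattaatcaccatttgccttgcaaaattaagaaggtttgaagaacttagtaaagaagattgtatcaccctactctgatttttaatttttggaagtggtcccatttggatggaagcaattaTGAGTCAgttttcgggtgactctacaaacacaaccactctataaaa

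Among the 11024 tested genes with a promoter window, 14.5% held the E-box, 13.2% the MCAT element, 3.15% the interferon element and 5.76% the AP-1 element. The E-box stood in 9 and the MCAT element in 8 of the 18 skeletal fibre genes with a window, and the interferon element in 12 of the 25 interferon-stimulated genes with a window (48%). In Isg15 the capitals join 3 overlapping matches that begin 78, 72 and 66 bases before the start, and in Bst2 they join 2 that begin 130 and 124 bases before it. AP-1 matches stood in 7.76% of the promoters of genes higher in aorta and in 8.72% of those of genes higher in muscle. These 4 motifs were kept from a wider search after their shares had been seen, and a match is only a match of letters.

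Of 25485 probes that were well above background on all arrays of at least 1 tissue, 3353 differed between the tissues at an adjusted p under 0.05 (limma, Benjamini-Hochberg), which is 13.2%, and 7353 passed an unadjusted p of 0.05. Of these 3353, 2025 were higher in aorta (7.95%) and 1328 in muscle (5.21%). On the level of genes, each read on its brightest probe, 2130 of 13831 were called (15.4%), 1340 higher in aorta (9.69%) and 790 higher in muscle (5.71%), with a median log2 difference, aorta minus muscle, of -0.18 over all genes. Higher in aorta without overlap between the groups were 16.5% of the genes, and higher in muscle without overlap 22.2%. Counts of list members below are to be read against these shares. No called gene with values in all 3 trials had a trial of the opposite sign, trial 1 included. The genes were called on these same arrays, so a shared sign is largely set by the selection and is no separate check. Because these are sorted pools, fewer cells of a type and less RNA per cell cannot be told apart. In every comparison below the number of arrays, 3 against 3, limits the precision.

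The count of calls depended on single libraries. Without trial 1 there were 2116 calls, without trial 2 300 and without trial 3 1423. With only 1 array removed, the count was 1610 without the aortic array of trial 1, 1333 and 1525 without the aortic or the muscle array of trial 2, and 1695 without the muscle array of trial 3. Within the scan session of trials 2 and 3 the count is that without trial 1, and trial 1 alone has no replicate. With the trial as a block, which pairs the tissues of the same mice, Angpt1, Bcl6b, Cd93, Cxcr4, Epha2, Ephb4, Fbn1, Igtp, Lama2, Lama5, Mef2c, Notch1, Nr2f2, Nr4a2, Pxdn, Sfrp2, Sox18 and Tbx5 lay just above the threshold (adjusted p 0.050 to 0.0696, limma) and Nos3 below it (adjusted p = 0.0441). Scaling mattered for the direction of the calls. The deposited log2 table, whose scaling shifts the tissues by a constant against each other, called 2424 probes higher in aorta and 772 in muscle (75.8% of the calls in aorta, against 60.4%). A scaling on the pan-endothelial markers described next, added after the data were seen, put 96.9% of its 6051 calls in aorta and moved the median of all probes to 1.22.

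Markers of several cell types differed between the sorted pools. Of the 30 pan-endothelial markers 29 were tested, and 24 of them were higher in muscle without overlap, against 22.2% of all genes. Past the threshold were 6, against 5.71%, and the median difference was -1.40, which was 0.04 on the scale centred on them. None was higher in aorta. The summed level of the 29, as a ratio to the 75th percentile, was 358, 569 and 696 in aorta and 1082, 1357 and 1122 in muscle (trials 1, 2 and 3). Cdh5, the adhesion molecule of endothelial junctions, read 3.73, 4.91 and 5.09 in aorta and 6.02, 5.60 and 5.86 in muscle. All 3 muscle arrays lay above all 3 aortic arrays, and the lowest level was that of the aortic array of trial 1, but the difference of -1.25 did not pass the threshold (SE 0.42, adjusted p = 0.0939, limma). Pecam1 (-1.47, adjusted p = 0.168) and Eng, which was used to sort the cells (-1.22, adjusted p = 0.0849), gave similar values below the threshold. Erg, an ETS factor that maintains endothelial identity, differed by -2.50 (adjusted p = 0.0142), and Sox18, S1pr1, Myct1, Esam and Mcam by between -1.54 and -2.31 (adjusted p 0.0152 to 0.0474). Cd34 and Vwf gave differences of -0.01 and -0.31 with overlapping groups. Without trial 1, 2 or 3 the number of these markers called was 1, 0 and 5, and on the scale centred on the list it was 0.

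**Figure D1:**
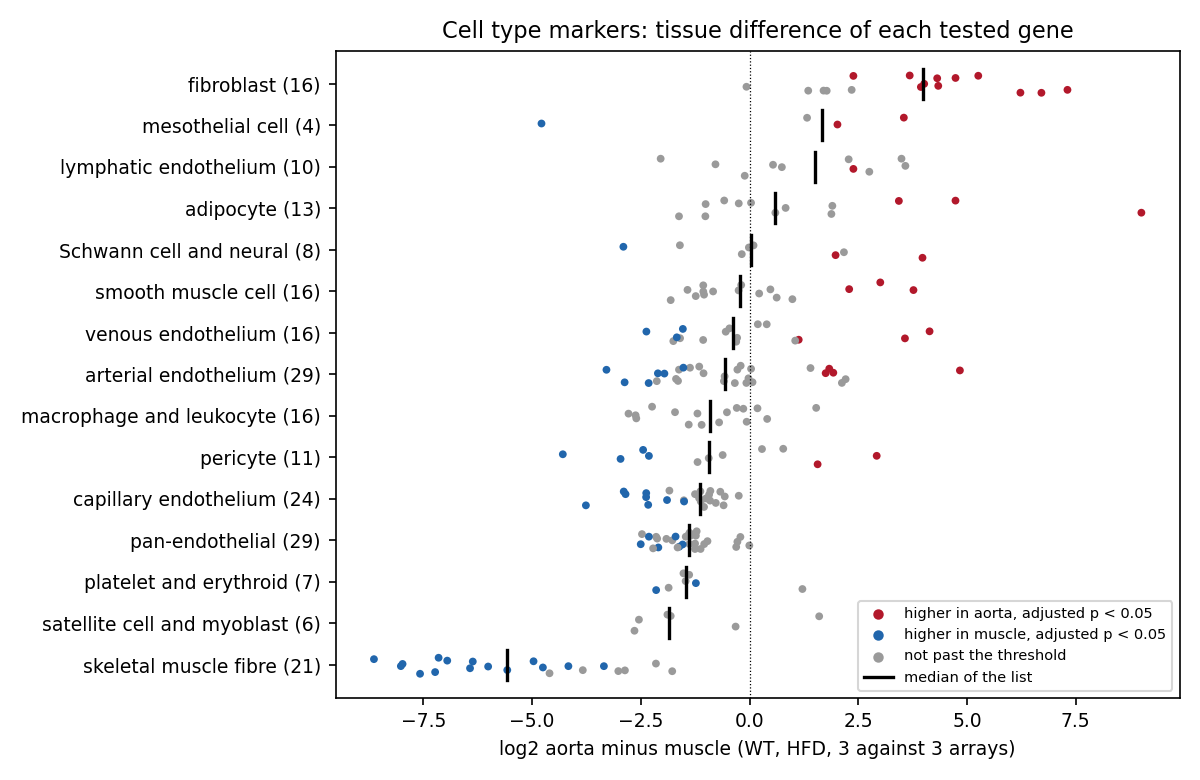
The log2 difference, aorta minus muscle, of each tested marker is plotted on the horizontal axis by cell type, with the number tested in brackets, the median as a bar and colour for the test. Fibroblast markers lie to the right with a median of 3.98, skeletal fibre markers to the left with a median of -5.57, and the 29 pan-endothelial markers lie below 0 with a median of -1.40, which was 0.04 on the scale centred on them.

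Fibroblast markers were higher in aorta. Of 16 tested, 11 were called higher in aorta, none in muscle, with a median of 3.98. Their summed level was 902, 850 and 620 in aorta and 386, 139 and 172 in muscle, so every aortic array was above every muscle array, and muscle array 1 was the highest of its tissue. Pdgfra, the receptor that marks fibroblasts, read 4.90, 4.67 and 4.48 in aorta and 1.76, -1.15 and 0.43 in muscle (difference 4.34, SE 0.68, adjusted p = 0.00907). The mesenchymal factor Tcf21 was well above background on 3 aortic arrays and on 1 muscle array and differed by 7.31 (adjusted p = 0.00175). Pi16 and Lum, products of adventitial fibroblasts, differed by 5.26 and 4.01. The collagens Col1a2 and Col3a1 were bright in both tissues and did not pass (2.35 and 1.77, adjusted p 0.0585 and 0.117). With trial 1, 2 or 3 left out the calls were 12, 1 and 1.

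Skeletal fibre genes, which encode the contractile apparatus, were higher in muscle throughout. All 21 tested lay below 0, 15 of them past the threshold, and 14, 7 and 11 remained in number without trial 1, 2 or 3. Tnnc2, the calcium sensor of fast fibres, read -3.0, -3.92 and -3.44 in aorta and 5.83, 4.18 and 3.68 in muscle, a difference of -8.02 (SE 0.58, adjusted p = 0.00175). Myl1 and Mylpf, whose promoters are printed above, differed by -5.57 and -4.97. The summed level of the list was 3.32, 4.25 and 5.29 in aorta and 270, 72.4 and 57.0 in muscle, and the muscle array of trial 1 was the highest. The genes of satellite cells were mostly dim, with Pax7 at -2.51, -5.69 and -4.56 in muscle, and none of the 6 tested was called. The fibre list kept its direction and 15 calls on the endothelial scale, with a median of -4.12.

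Markers of other cell types also differed in sum, and their part in the results was not tested. Schwann cell and neural markers summed to 82.0, 76.4 and 41.7 in aorta and 28.0, 18.3 and 11.7 in muscle, with 2 of 8 called in aorta and 1 in muscle. Platelet and erythroid markers summed to 11.2, 10.4 and 12.4 in aorta and 34.5, 27.7 and 26.3 in muscle, with 2 of 7 called in muscle. The sums of neither list overlapped between the tissues, but single members differed in direction. Of the 8 Schwann and neural genes 4 lay above 0 and 4 below, with a median of 0.04. Of the 7 platelet and erythroid genes 1 lay above 0 and 6 below, with a median of -1.47. Lymphatic markers summed to 124, 134 and 146 in aorta and 66.1, 33.6 and 32.6 in muscle. The lymphatic chemokine Ccl21a read 4.70, 5.05 and 5.39 in aorta and 3.81, -0.48 and 1.31 in muscle, but did not pass (3.49, adjusted p = 0.0535), and the 1 called member of 10 was Thy1, which fibroblasts carry too. Without trial 1, 4 lymphatic members were called. Smooth muscle genes overlapped in sum (101, 153 and 100 in aorta, 154, 138 and 131 in muscle), with Acta2 at -0.19 and Myh11 at -1.24, neither called, while Itga8, Ramp1 and Cnn1 were higher in aorta (3.77, 3.01 and 2.29), 3 calls that became 3, 0 and 1 without trial 1, 2 or 3. Pericyte genes split, with Rgs5, Higd1b, Vtn and Mcam higher in muscle (-4.29, -2.97, -2.45 and -2.31, not past the threshold on the endothelial scale but for Rgs5) and Anpep and Abcc9 higher in aorta. The pericyte calls without trial 1, 2 or 3 were 3, 0 and 4 in muscle and 1, 0 and 1 in aorta. Macrophage and leukocyte markers summed to between 3.23 and 14.7 in aorta and between 3.64 and 31.4 in muscle, and none of 16 was called. Ptprc, which encodes CD45, read -4.30, -2.01 and -4.32 in aorta and -0.83, -5.55 and -0.94 in muscle.

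**Figure D2:**
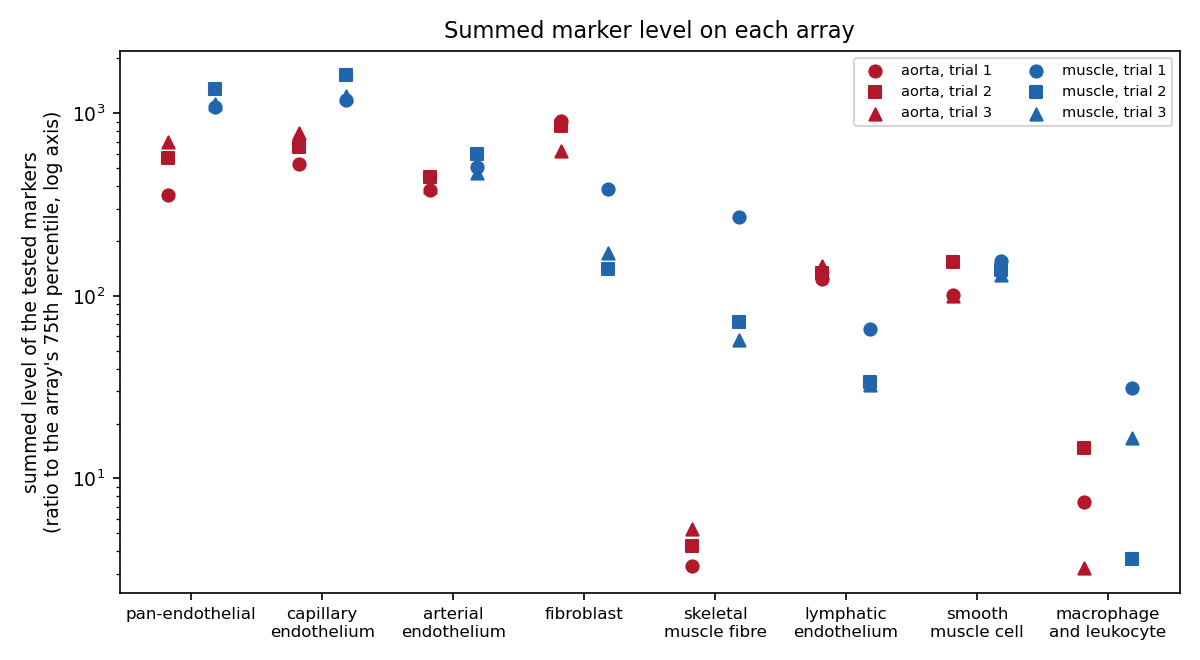
Summed level of the tested markers of 8 cell types on each array, as a ratio to the array's 75th percentile on a log axis, with the tissue as colour and the trial as symbol. Pan-endothelial sums ran from 358 to 696 in aorta and from 1082 to 1357 in muscle, fibre sums from 3.32 to 5.29 and from 57.0 to 270.

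Of 13 adipocyte genes tested, 3 were called higher in aorta and none in muscle, against 9.69% and 5.71% of all genes. Without trial 1, 2 or 3 the aortic calls were 5, 2 and 3. Ucp1, the uncoupling protein of brown adipocytes, read 0.84, 2.33 and 2.42 in aorta and -5.46, -8.37 and -7.60 in muscle, where 1 of 3 arrays was well above background (difference 9.01, SE 0.79, adjusted p = 0.00208). Cidea, a lipid droplet protein of brown fat, differed by 4.73 (adjusted p = 0.015) and Cyp2e1 by 3.43, each well above background on 2 muscle arrays. Adipoq gave -1.02, Retn 0.03, Cfd 0.59 and Plin1 1.88, none past the threshold, and the median of the list was 0.59. The summed level of the list was 115, 130 and 128 in aorta and 155, 176 and 124 in muscle. Whether fat around the aorta contributed was not tested.

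Arterial markers were called in both directions. Of 29 tested, 4 were called higher in aorta and 6 higher in muscle, against 9.69% and 5.71% of all genes, with a median of -0.57 that turned to 0.87 on the endothelial scale, where 7 were higher in aorta and 1, Cxcr4, in muscle. Hey2, a Notch target that sets arterial fate, stood out. It read -1.83, -1.17 and -1.58 in aorta and -5.57 and -7.16 in muscle, with no value on the muscle array of trial 3, and was well above background on 1 muscle array (difference 4.84, SE 0.54, adjusted p = 0.00507). Cytl1, Sulf1 and Clu, secreted products found in large artery endothelium, were higher by 1.93, 1.83 and 1.75 (adjusted p 0.0396, 0.0161 and 0.0313). The connexin Gja5 did not separate the tissues at 0.52, 0.35 and 0.95 in aorta and 0.87, 0.03 and 0.71 in muscle, and neither did Jag1 (-0.07), Vegfc (0.03) or Gja4 (-0.28). Without trial 1, 2 or 3 the list had 3, 0 and 2 calls in aorta and 2, 0 and 4 in muscle.

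Notch components themselves were higher in muscle on the percentile scale. Of 20 pathway genes tested, 7 were called higher in muscle and 2 in aorta, with a median of -1.02 that turned to 0.43 on the endothelial scale, where none was called in muscle. The ligand Dll4 read -3.23, -2.78 and -1.38 in aorta and -0.63, -0.26 and 0.45 in muscle, without overlap (-2.32, adjusted p = 0.0319). The receptors Notch1 and Notch4 differed by -1.96 and -2.11, the ligand Jag2 by -2.68 and the feedback inhibitor Nrarp by -2.55. In aorta the called members were Hey2 and Dner, a Notch ligand of neurons. Dner differed by 8.03 (adjusted p = 0.0147) but was well above background on 1 muscle array. Without trial 1 or trial 2 no Notch gene was called in muscle, and without trial 3 there were 4.

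Capillary markers were higher in muscle, with the strongest values for Timp4. All 24 tested lay below 0 and 22 did not overlap, against 22.2% of all genes. Past the threshold were 8, against 5.71%, and the median was -1.15, which turned to 0.30 on the endothelial scale. Timp4, a metalloproteinase inhibitor, read 1.47, 1.76 and 3.01 in aorta and 5.34, 6.27 and 5.93 in muscle (-3.76, SE 0.48, adjusted p = 0.00507), and was the 1 capillary marker still called on the endothelial scale (-2.32, adjusted p = 0.0083). Apln, the apelin ligand, and Slc28a2, a nucleoside transporter, differed by -2.89 and -2.85. Cd300lg, Tcf15, Aqp7, Ramp3 and Cd93 were called at -2.38, -2.38, -2.33, -1.90 and -1.50. Tcf15, with Meox2 a factor that drives fatty acid uptake genes in muscle capillaries, read 2.22, 2.69 and 4.14 in aorta and 5.24, 5.58 and 5.34 in muscle. The aortic array of trial 3 was the closest to muscle for Timp4, Tcf15, Slc28a2 and Apln. Without trial 1, 2 or 3 the calls were 1, 0 and 6.

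Fatty acid uptake and handling genes had calls in both directions. Cd36, the main fatty acid translocase, read 4.49, 5.14 and 5.60 in aorta and 6.11, 6.31 and 5.95 in muscle, without overlap but not past the threshold (-1.05, adjusted p = 0.104). Gpihbp1, which moves lipoprotein lipase to the capillary lumen, gave -1.16 (adjusted p = 0.0593), Lpl -1.0 and the intracellular carrier Fabp4 -0.25. Fabp4 lay between 6.42 and 7.06 on all 6 arrays. Of 29 tested genes of uptake and handling, 4 were called in muscle and 2 in aorta, against 5.71% and 9.69% of all genes. Without trial 1, 2 or 3 there were 0, 0 and 3 in muscle and 2, 0 and 0 in aorta. The lipoprotein receptors went opposite ways, with Scarb1 higher in muscle (-2.18, adjusted p = 0.0181) and Vldlr higher in aorta (2.88, adjusted p = 0.0157). Vegfb, a ligand tied to endothelial fatty acid uptake, was higher in aorta by 1.56 and its receptor Nrp1 higher in muscle (-1.52). On the endothelial scale none of the 4 muscle calls remained past the threshold.

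**Figure D3:**
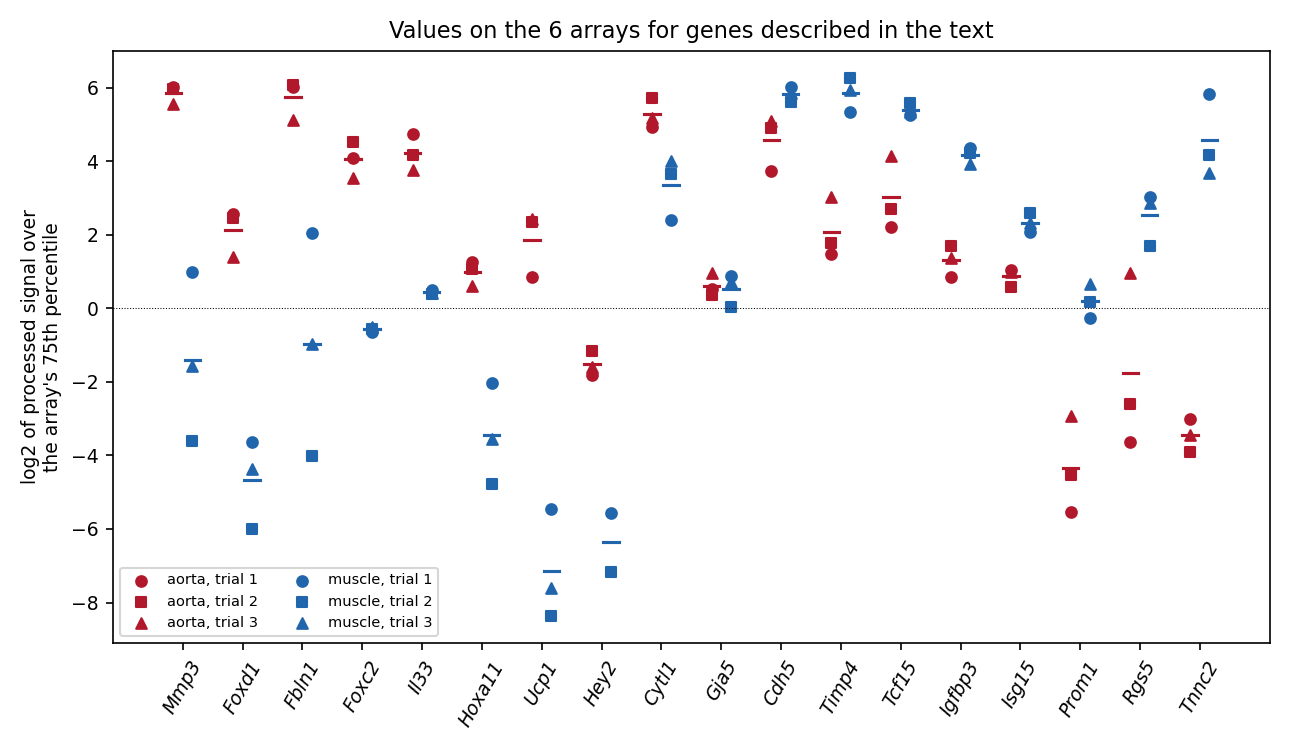
Level of 18 genes on each of the 6 arrays, as log2 of processed signal over the array's 75th percentile, with tissue as colour, trial as symbol and the mean of a tissue as a bar (Hey2 has no value on muscle array 3). Gja5 overlaps between tissues, while Tnnc2 is at 3.68 or above in muscle and at -3.0 or below in aorta.

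Most elastic fibre genes were higher in aorta. Of 21 elastic fibre genes tested, 16 were called higher in aorta and none in muscle, with a median of 3.47 against -0.18 over all genes. Eln itself, the elastin gene, was a smaller member at -0.09, 0.15 and 1.03 in aorta and -1.46, -2.0 and -1.25 in muscle (1.93, adjusted p = 0.0218). Mfap4, which binds elastic microfibrils, read 5.69, 5.85 and 5.06 in aorta and 0.70, -1.59 and -1.80 in muscle (6.43, adjusted p = 0.00293). Fbln1 (6.71), Loxl1 (5.52), Efemp2 (3.47) and Fbn1 (2.53), genes of fibre assembly, were higher too. Fbln1, a member of both this list and the fibroblast list, read 2.06, -4.02 and -0.96 in muscle, while Eln was highest there on array 3. Whether fibroblasts contributed to these values was not tested. Without trial 1, 2 or 3 the elastic calls were 15, 2 and 3.

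Fibrillar collagens and small proteoglycans had 14 of 24 called in aorta, none in muscle, with a median of 3.53. Omd (6.63), Col14a1 (6.39), Col2a1 (4.52), Ogn (3.95) and Bgn (3.57) were among them, and the calls numbered 15, 2 and 2 without trial 1, 2 or 3. Matricellular genes gave 12 of 21 in aorta, led by Ccn5 (7.06), Smoc1 (6.29) and Ccn4 (6.00). Mgp, the inhibitor of arterial calcification, read 6.53, 6.42 and 6.00 in aorta and 4.38, 4.54 and 4.60 in muscle (1.81, adjusted p = 0.0103). Its muscle values lay within 0.22 of each other. Thbs4 was the 1 matricellular gene higher in muscle (-2.12). It was not called there without trial 1, without trial 2, without trial 3 or on the endothelial scale. Matricellular calls in aorta were 8, 2 and 5 without trial 1, 2 or 3. Of 25 basement membrane genes 5 were called in aorta and 3 in muscle, against 9.69% and 5.71% of all genes. These calls became 5, 1 and 1 in aorta and 0, 0 and 1 in muscle without trial 1, 2 or 3. Col4a5 (well above background on 1 muscle array), Lama2 and Col18a1 were higher in aorta (6.24, 3.26 and 2.08). Col4a2, Lama5 and Pxdn were higher in muscle (-1.99, -2.14 and -1.99), none of these 3 past the threshold on the endothelial scale. Of the 25 genes 17 were not called, and the median of the list was 0.008.

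Genes of body position differed in both directions. Of 32 positional transcription factors tested, 14 were called higher in aorta and 3 in muscle, with a median of 2.44. Foxc2, a forkhead factor of arterial and lymphatic vessels, gave one of the tightest separations, with 4.08, 4.52 and 3.55 in aorta and -0.65, -0.57 and -0.50 in muscle (4.63, SE 0.34, adjusted p = 0.00175). Gata6, a cardiovascular zinc finger factor, read 4.26, 4.11 and 4.20 in aorta and 0.88, 1.26 and 1.73 in muscle (2.90, adjusted p = 0.00355). Osr1 (5.73), Meis2 (5.13), Prrx1 (4.15) and Tbx18 (2.70) were higher on arrays where both tissues were above background, and Lhx9 (6.85), Isl1 (5.47), Meis1 (4.88) and Tbx5 (3.07) where only 1 or 2 muscle arrays were. Higher in muscle were Eya1, Tbx3 and Gata2 (-2.82, -2.06 and -2.04), of which none passed on the endothelial scale. Aortic calls were 14, 5 and 8 and muscle calls 0, 0 and 2 without trial 1, 2 or 3.

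Of 39 HOX cluster genes, 25 were tested and 3 were called, each higher in aorta, against 9.69% of all genes, which is no result about the list. Hoxa11, a gene of the hindlimb and posterior trunk, read 1.26, 1.07 and 0.61 in aorta and -2.03, -4.77 and -3.54 in muscle (4.43, adjusted p = 0.00763). Hoxc9 differed by 4.36 and Hoxa10 by 1.89. The median of the list, -0.18, was that of all genes, and the count was 2, 0 and 1 without trial 1, 2 or 3.

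The general endothelial transcription factors leaned to muscle with 10 of 42 called there and 3 in aorta, which were Hey2, Foxc2 and Nr2f2, at a median of -0.98 that turned to 0.47 on the endothelial scale with no muscle call. Bcl6b, Gata2, Ets2, Lyl1, Mef2a and Mef2c were called along with Erg, Sox18, Tcf15 and Tbx3. None of the 10 was called in muscle without trial 1 or without trial 2.

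Wnt genes were higher in aorta. The pathway had 20 of 32 tested genes called in aorta and none in muscle, with a median of 2.75, and 19, 3 and 8 calls without trial 1, 2 or 3. Among ligands, Wnt2 read 3.19, 2.69 and 2.00 in aorta and -0.90, -1.69 and -1.70 in muscle (4.06, adjusted p = 0.00283), and Wnt2b and Wnt10b, not well above background on any muscle array, were at least 8.83-fold and 5.97-fold higher in aorta (adjusted p 0.00206 and 0.0071). The receptor Fzd1 had 4.71, 4.59 and 4.34 in aorta and 1.29, 1.30 and 1.22 in muscle (3.28, SE 0.28, adjusted p = 0.00202). Secreted inhibitors were among the largest values, with Sfrp2 at 7.80, Dkk3 at 7.16 and Sfrp4 at 5.90, but their muscle values were spread widely, from 1.70 to -7.07 for Sfrp2, and Sfrp2 and Dkk3 were well above background on 2 of 3 muscle arrays. All 3 were highest in muscle on array 1.

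TGF-beta and BMP genes gave 11 of 32 in aorta and 1, Smad1, in muscle. The ligands Gdf10, Gdf6, Tgfb3 and Bmp4 (7.17, 4.98, 3.01 and 1.36) and the antagonist Grem1 (3.82) were higher in aorta, Gdf6 and Grem1 well above background on 1 muscle array. Guidance genes were called in both directions. Slit2, Slit3, Sema3b, Sema3c, Sema3d, Epha3 and Ephb3 were among 15 of 39 higher in aorta (3.81 to 8.37), with Epha3, Sema3c and Sema3d well above background on 1 muscle array and Slit2 on 2, while Plxnd1, Sema7a, Plxna2, Epha2, Ephb1 and the venous receptor Ephb4 made up the 6 higher in muscle (-1.53 to -2.43), of which none passed on the endothelial scale. In the VEGF and angiopoietin pathways the ligands Vegfd, Vegfa and Vegfb were higher in aorta (5.95, 2.39 and 1.56), Angpt1 was at least 2.49-fold higher there (adjusted p = 0.0454), and Angpt2, Apln, its receptor Aplnr and the feedback gene Spry1 were higher in muscle (-1.40, -2.89, -2.37 and -1.67). Esm1, a tip cell proteoglycan, was higher in aorta by 3.19 (adjusted p = 0.00763). Without trial 1, 2 or 3 the aortic calls were 8, 0 and 1 for TGF-beta and BMP genes, 14, 4 and 5 for guidance genes and 5, 1 and 2 for VEGF and angiopoietin genes, and no guidance or VEGF gene was called in muscle without trial 1 or trial 2.

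**Figure D4:**
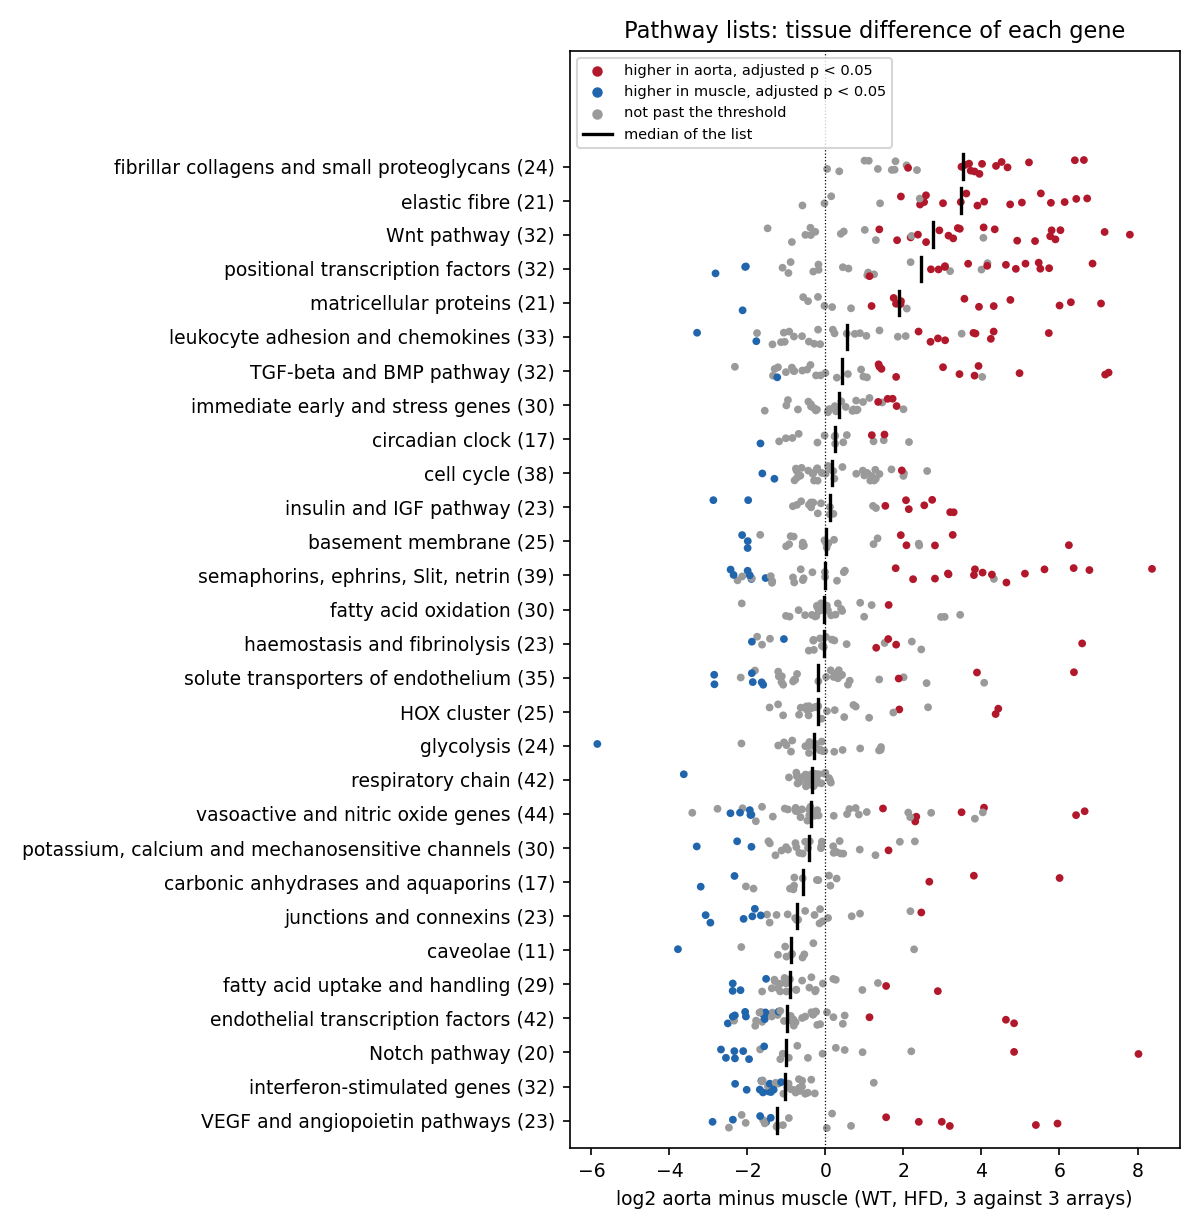
The log2 difference, aorta minus muscle, of each tested gene in 29 pathway and function lists, with the number tested in brackets, the median as a bar and colour for the test. The elastic fibre, fibrillar collagen and Wnt lists lie to the right with medians of 2.75 to 3.53. The matricellular list has a median of 1.89 and the basement membrane list one of 0.008. The Notch, interferon and endothelial factor lists have medians between -0.98 and -1.03 that are 0.42 to 0.47 on the endothelial scale.

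Of 44 vasoactive genes 7 were called in aorta and 5 in muscle, against 9.69% and 5.71% of all genes. Among them the cyclooxygenase Ptgs2 was higher in aorta by 6.43, the prostacyclin synthase Ptgis by 6.65 and the prostacyclin receptor Ptgir by 2.30 (adjusted p 0.0108, 0.00531 and 0.0294). Ptgis read 2.61, 2.90 and 1.80 in aorta and -2.06, -5.28 and -5.29 in muscle, where it and Ptgs2 were well above background on 2 of 3 arrays. Ptges, the prostaglandin E synthase, followed at 4.07, and Agtr2, an angiotensin receptor, was at least 2.76-fold higher (adjusted p = 0.00711). In muscle Gch1, which makes the cofactor of nitric oxide synthase, read 1.81, 1.80 and 1.45 against -1.26, -0.80 and -0.18 in aorta (-2.43, adjusted p = 0.00783), and Ednrb and Adora2b were higher there (-1.92 and -1.94). Nos3 gave -2.12 without passing (adjusted p = 0.0547). No muscle call of this list passed on the endothelial scale, and without trial 1, 2 or 3 it had 8, 1 and 2 calls in aorta and 3, 0 and 3 in muscle.

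Of 23 haemostasis genes tested, 4 were called in aorta and 2 in muscle, against 9.69% and 5.71% of all genes, with a median of -0.04. Without trial 1, 2 or 3 there were 2, 1 and 0 in aorta and 1, 0 and 0 in muscle. F3, tissue factor, which starts coagulation, read 4.46, 4.98 and 5.08 in aorta and -0.10, -3.94 and -1.17 in muscle (6.58, adjusted p = 0.00589). Its inhibitor Tfpi and the fibrinolysis gene Plat were higher by 1.61 and 1.30, and Entpd1, an ectonucleotidase, was higher in muscle (-1.88). Il33, an alarmin, read 4.74, 4.17 and 3.76 in aorta and 0.49, 0.39 and 0.40 in muscle (3.79, SE 0.34, adjusted p = 0.00213). Its 3 muscle values lay within 0.10 of each other. Il6 (4.24), Ccl19 (5.73), Ccl7 (4.31), Cxcl1 (3.07), Ccl11 (2.88) and Ccl2 (2.39) were also among the 9 of 33 adhesion and chemokine genes called in aorta. The adhesion molecules Icam1, Vcam1 and Selp were not called (0.19, 1.05 and -1.07). In muscle the calls were F11r and Cxcr4 (-1.77 and -3.29), the latter still past the threshold on the endothelial scale (-1.84, adjusted p = 0.047). Leaving out trial 1, 2 or 3 left 8, 2 and 3 adhesion and chemokine calls in aorta and 2, 0 and 0 in muscle.

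Interferon-stimulated genes lay higher in muscle on the percentile scale. Of 32 tested 31 lay below 0, 22 did not overlap (against 22.2% of all genes) and 10 were called (against 5.71%). The median was -1.03 and turned to 0.42 on the endothelial scale. Isg15, a ubiquitin-like modifier, read 1.04, 0.58 and 0.99 in aorta and 2.07, 2.58 and 2.32 in muscle (-1.45, SE 0.31, adjusted p = 0.0233). Bst2, a restriction factor, had 3.67, 3.94 and 3.70 in aorta and 4.88, 5.60 and 4.83 in muscle (-1.33, adjusted p = 0.0389), and Tap1, a peptide transporter of antigen presentation, differed by -2.31. Stat2, Usp18, Oas1a, Gbp4, Iigp1, Igtp and Xaf1 were called at -1.14 to -2.02. The muscle array of trial 2 was the highest for Isg15 and Bst2. None of the 10 was called without trial 1, without trial 2 or without trial 3, and none on the endothelial scale.

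Junction genes had 6 of 23 called in muscle, namely Marveld2, Jup, Esam, Tjp1, Gja1 and Gjc1 (-3.07 to -1.66), and Panx1 in aorta (2.46). None of the 6 was called without trial 1, without trial 2 or on the endothelial scale. Of 35 transporters 3 were called in aorta and 6 in muscle, against 9.69% and 5.71% of all genes. Slc6a2 and Lrp1 were higher in aorta (6.37 and 3.88) and Slc28a2, the drug pump Abcb1a and Abcc4 in muscle (-2.85, -2.84 and -1.89). The 6 became 0, 0 and 2 without trial 1, 2 or 3, and 0 on the endothelial scale. The IGF axis had 7 of 23 in aorta, with Igf1 at 4.30, 4.37 and 3.35 against 0.42, 1.13 and 0.87 in muscle (3.20, adjusted p = 0.00456) and Igfbp4, Irs1 and Igfbp5 at 3.29, 2.74 and 2.07. Its aortic calls were 6, 0 and 2 without trial 1, 2 or 3. Igfbp3, an IGF carrier, went the other way, with 0.86, 1.69 and 1.36 in aorta and 4.37, 4.22 and 3.93 in muscle (-2.87, SE 0.33, adjusted p = 0.00397). It was 1 of 2 muscle calls of this list. They became 1, 0 and 1 without trial 1, 2 or 3, and 0 on the endothelial scale.

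Lists of core metabolism and growth were read against 15.4% of all genes called in either direction. Of 42 respiratory chain genes 39 lay below 0 with a median of -0.34, close to that of all genes, and 1 was called, Cox6a2, the subunit of striated muscle (-3.63). Glycolysis had 1 of 24 called, the muscle isoform Pgam2 (-5.85). Fatty acid oxidation had 1 of 30, Decr1 in aorta (1.62), the cell cycle list 3 of 38 and the circadian clock list 3 of 17. Immediate early genes had 4 of 30 in aorta, Gadd45b, Myc, Nr4a1 and Nr4a2 (1.82, 1.72, 1.60 and 1.35), against 9.69% of all genes, and Fos and Jun were not among them. Without trial 2 no gene of these 6 lists was called, and the early genes had 3 calls without trial 1 and 0 without trial 3.

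By size, the first 15 genes in aorta among those well above background on all 6 arrays were the matrix proteases Mmp3 and Mmp23, Gdf10, Ccn5, Foxd1, Fbln1, Nkain4, Rbp4, Omd, F3, Tent5a, Dpep1, Cpxm1, Mfap4 and Col14a1, with differences between 6.39 and 7.24. Mmp3, which encodes stromelysin, read 6.00, 5.96 and 5.56 in aorta and 1.00, -3.62 and -1.56 in muscle (7.24, SE 1.02, adjusted p = 0.00656). Foxd1, a forkhead factor of stromal cells, had 2.55, 2.45 and 1.41 in aorta and -3.63, -6.00 and -4.37 in muscle (6.80, SE 0.64, adjusted p = 0.00231). In both genes the muscle array of trial 1 was the highest of its tissue and that of trial 2 the lowest. Of the 15 in muscle, 9 encode parts of the sarcomere or myoglobin or the fibre's anchoring proteins, namely Tnnc2, Tnni2, Myoz1, Tnnt3, Myh8, Myl1, Myl3, Mylpf and Mb, with Nrap beside them, and the remaining 5 were Retnla, Prom1, Rgs5, Cd247 and Tnfrsf21. Prom1, a membrane glycoprotein of stem and progenitor cells, read -5.54, -4.52 and -2.93 in aorta and -0.27, 0.18 and 0.66 in muscle (-4.52, adjusted p = 0.00703). In muscle it was lowest on array 1, as were Cd247 and Tnfrsf21, and all 3 were still called on the endothelial scale (-3.07, -2.62 and -2.58).

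Some genes were well above background in only 1 tissue, so that the fold difference is a lower bound. In aorta alone, Slc4a10, Vwc2, Plcxd3, Pnoc, Cdhr1, Matn3, Ccdc27, Cyp2b13 and Cacna2d3 were at least 115-, 54.9-, 41.4-, 30.5-, 28.5-, 19.4-, 18.8-, 18.4- and 16.2-fold higher (adjusted p 0.00175 to 0.00347), Pnoc with no value on muscle array 3. In muscle alone, the fibre genes Mybpc2, Myot, Atp2a1, Xirp2, Tmod4, Myo18b and Rpl3l were at least 119-, 117-, 29.5-, 23.3-, 17.0-, 13.3- and 16.4-fold higher, Art1 at least 28.4-fold and Lhfpl3 at least 12.0-fold. Klra3, a lectin-like receptor known from natural killer cells, was at least 17.5-fold higher in muscle (adjusted p = 0.00889, no value on aortic array 1). Its relatives, chosen after their values were seen, moved with it: all 7 Klra genes tested were called higher in muscle, by -3.15 to -6.47. Klra9 read -6.81, -5.98 and -4.78 in aorta and -0.68, 0.49 and 0.81 in muscle (-6.07, adjusted p = 0.00264), lowest in muscle on array 1. Klra genes are near-identical copies, so their probes may read each other's transcripts. Other lymphocyte genes differed in their result. Prf1 and Nkg7 of killer cells did not separate the tissues (0.26 and 0.17, groups overlapping). Cd247, named above, was higher in muscle by -4.07 (adjusted p = 0.0161, limma), with all 3 of its probes called. Whether killer cells contributed was not tested.

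The same tissue contrast in the other diet and strain groups shared no array with WT HFD, but shared its slides. It called 2374 probes in WT on chow (9.41%), 3191 in KO on HFD (12.6%) and 1349 in KO on chow (5.41%). Of the WT HFD calls, 1457 were called in the same direction in WT chow (43.5% of the WT HFD calls and 61.4% of the chow calls), 2218 in KO HFD (66.1% and 69.5%) and 982 in KO chow (29.3% and 72.8%), and none in the opposite direction. These shared counts include trial 1, whose WT and KO HFD pools are in question above, and are not given without it. The difference between tissue differences was then tested over all 24 arrays and 27346 probes. No probe passed for diet (WT HFD against WT chow, smallest adjusted p = 0.665, 968 at an unadjusted p under 0.05) or for strain (WT HFD against KO HFD, smallest adjusted p = 1, 398 at an unadjusted p under 0.05, limma).

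**Figure D5:**
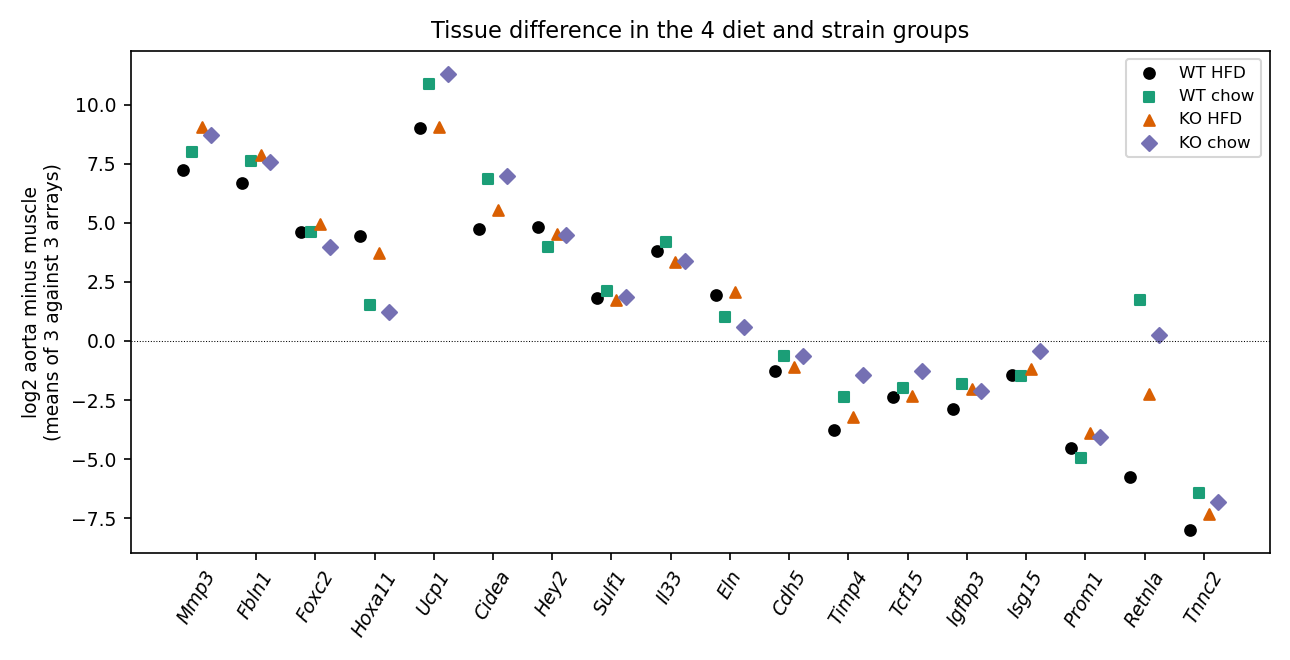
The log2 difference, aorta minus muscle, of 18 genes in WT HFD, WT chow, KO HFD and KO chow, each from the means of 3 against 3 arrays. Mmp3 lies between 7.24 and 9.05 and Foxc2 between 3.98 and 4.96 in all 4 groups, while Retnla runs from -5.74 to 1.75.

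Foxc2 differed by 4.63 in WT HFD, 4.62 in WT chow, 4.96 in KO HFD and 3.98 in KO chow, Hey2 by 4.84, 3.96, 4.53 and 4.47, and Prom1 by -4.52, -4.97, -3.91 and -4.08. Each was past the threshold in all 4 groups. Ucp1 was at 9.01 and 9.06 on HFD (WT, KO) and at 10.89 and 11.33 on chow. Timp4 ran from -3.76 in WT HFD to -1.43 in KO chow, where it was not called. Hoxa11 was called on HFD (4.43 in WT, 3.73 in KO) and not on chow (1.53 and 1.25), and the diet difference of 2.90 in WT reached an unadjusted p of 0.00736 but not an adjusted one (adjusted p = 1, limma). Retnla, a secreted resistin-like protein, was at -5.74 in WT HFD and 1.75 in WT chow, a difference of -7.49 (unadjusted p = 0.00985, adjusted p = 1, limma). Its muscle excess was not seen in the chow arrays, but the change of the tissue difference with diet was not called. The effect of diet within a tissue was not tested here. The study reported lower Retnla on HFD in WT aortic endothelium. Isg15 was at -1.45, -1.49, -1.19 and -0.44, called in WT HFD alone, and its diet difference in WT had an unadjusted p of 0.924.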

How the data were processed

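Sorted endothelial pools were measured on single-colour Agilent arrays. The authors deposited processed-signal intensity for each array, from Feature Extraction (9.1 per the labels, 10.5.1.1 per the file headers), and a log2 table that equals that signal plus a constant per array. No genome build is named for the array probes in the sources used here, and the promoters are RefSeq's on GRCm38.p6. Control spots and outlier flags were left out, signals were divided by the array's 75th percentile, and spots of a probe were averaged on the log2 scale. Probes well above background on all arrays of a tissue were tested with limma 3.58.1 (R 4.3.3, lmFit and eBayes, adjusted p under 0.05, Benjamini-Hochberg), each gene being represented by the probe with the highest mean level. A gene not well above background on any array of a tissue has a lower bound for its fold difference, against the higher of its own signal and the lowest signal among probes well above background on each array.

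The samples were grouped by their labels. The comparison, the gene lists, the motifs and the scaling centred on pan-endothelial markers were chosen with earlier results of these data known. Named genes are list members, the 15 largest differences in each direction, and the 10 largest bounds in each direction. Some genes that this rule names are not reported here. The tissues of a trial came from the same mice, so trials pair the tissues. Deviations from the tissue mean correlated at 0.144, 0.125 and 0.325 within trials and at -0.246 to 0.109 between trials. Taking deviations from means of 3 arrays lowers the values between trials by construction. The main test compared group means without the trial as a block, and the block was an alternative. Alternatives were background correction, scaling, filters, blocks, all 24 arrays, the methods' t-test and arrays left out. The methods were tested on simulated data. Nothing says that amplified pools are free of technical spread, so p-values measure the spread between 3 trials.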

Additional observations from a re-analysis of the deposited data

How the results depend on the processing

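The main count of 3353 probes (2025 higher in aorta, 1328 in muscle) stayed within 1.5 times under normexp (4223), quantile (3250) and median scaling (3515), outliers kept (3345), probes above background on all 6 arrays (2913), the replicate block (3552) and the scan session block (3849). The deposited log2 table called 772 in muscle. Without a filter on dim probes there were 1860 (1340 and 520). A fit of all 24 arrays called 2389 in muscle, and 2324 with the slide as a random block. The methods' t-test called 5897 unadjusted (3386 in muscle) and, after adjustment, 1 (0 in aorta, 1 in muscle). The scale centred on pan-endothelial markers, chosen after seeing the data, called 6051 (5861 and 190). It turned the log2 differences of Angpt2, Bst2, Igtp, Mef2c, Smad1, Stat2 and Xaf1 to 0.046, 0.12, 0.31, 0.25, 0.21, 0.018 and 0.050. The cause of these shifts was not tested.

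Leaving out 1 array or 1 trial gave 300 to 4013 calls, 207 to 2146 in aorta and 93 to 1867 in muscle. The diet and strain differences of the tissue difference had 0 calls under every alternative run, the slide as a replicate block included (0). The replicate block changed the call of the genes given in the report and of no other gene named there.

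With 3 pools for each tissue, tissue and slide cannot be told apart, markers of fibroblasts and muscle fibres move with the tissue, and dim genes have only bounds.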

Other observations

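Probes of 1 gene did not always give the same call. The brightest probe of Col4a6, a basement membrane collagen, differed by 0.08 between the tissues and was not called, whereas a second probe read 4.21, 4.37 and 2.80 in aorta and -2.71, -5.75 and -4.10 in muscle and was called higher in aorta by 7.98 (adjusted p = 0.00246, limma).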
